A study of Mus musculus with 4 samples.

Results

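Endocardial endothelial cells (ECs) were examined in single-cell RNA-seq data of ECs sorted from the mouse left ventricle. They were selected on their own counts of unique molecular identifiers (UMIs, each taken as 1 captured RNA molecule). A cell counted as an EC when it had more than 200 genes, under 20% mitochondrial and under 1% hemoglobin UMIs. It also needed at least 2 UMIs summed over Pecam1, Cdh5, Kdr, Tie1, Egfl7 and Cldn5, no UMI of the lymphatic genes Prox1 and Mmrn1, and at most 1 UMI of the mural genes Kcnj8, Abcc9, Vtn and Pdgfrb. An EC was called endocardial when it held at least 1 Npr3 UMI and at least 2 UMIs over the 4 gate genes Npr3, Cytl1, Hapln1 and Tmem108. This gave 201 members among 36742 ECs, out of 41843 deposited cells of which 39829 passed the filters. The remaining 36541 other ECs were the comparison.

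The 4 libraries came from RFP+ cells sorted from left ventricles, 2 from mice on the control diet (NC) and 2 from mice with heart failure with preserved ejection fraction (HFpEF) induced by a high-fat diet and L-NAME, an inhibitor of nitric oxide synthase. The control feed is labelled "Chow diet" although the study's methods describe a low-fat control diet. All mice carried a tamoxifen-inducible Cdh5-CreER and the R26 tdTomato reporter on a C57BL/6N background, so that RFP marked cells of the Cdh5 lineage, and the Cre also drove deletion of floxed Scarb1 in S fl/fl/R ΔEC mice or of 1 allele in S fl/+/R ΔEC mice. The labels did not say which genotype or how many mice went into a library, but the study describes 4 groups of mice, each diet in both genotypes, and there are 4 libraries. The libraries of 1 diet may therefore differ in genotype, and the spread within a diet may include its effect. The libraries held 7465 and 6924 cells (30387717 and 31517933 UMIs) in NC and 5769 and 21685 cells (11163876 and 48003732 UMIs) in HFpEF. Between 10 and 42 cell barcodes occurred in any pair of libraries, and none of them belonged to a member in both.

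The endocardium is the endothelial sheet that lines the heart chambers. It is in contact with the blood of the chamber, develops apart from most coronary vessels and sends paracrine signals such as neuregulin to the muscle beneath it. Npr3 encodes the clearance receptor that removes natriuretic peptides and is widely used as a marker of endocardium. Cytl1 encodes a small secreted protein, Hapln1 a protein that links hyaluronan to proteoglycans, and Tmem108 a transmembrane protein.

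The members were 45 and 56 cells in NC and 23 and 77 cells in HFpEF. They carried 273819 and 339511 UMIs in NC and 56718 and 305844 in HFpEF, so that 1 UMI stood for 3.65, 2.95, 17.6 and 3.27 CPM (UMIs of a gene per 1000000 UMIs of the same class and library) in libraries NC 1, NC 2, HFpEF 1 and HFpEF 2. HFpEF 1 was therefore the least precise library. Members had a median of 6486, 5721.5, 1859 and 2996 UMIs per cell in these libraries, above the 3744.5, 4070, 1753 and 1656 UMIs of other ECs. Their median mitochondrial share was below that of other ECs in each library, for example 4.26% against 6.85% in NC 1. A cell with more UMIs had more chances to pass the gate.

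The gate held 2 kinds of cell. Of the 201 members, 118 had UMIs of 2 or more gate genes and 83 had Npr3 alone. Npr3 with Cytl1 and Tmem108 was seen in 75 members, Npr3 with Cytl1 in 28, Npr3 with Tmem108 in 13 and all but Tmem108 in 2. Those 2 cells held the only 3 Hapln1 UMIs, so that Hapln1 hardly entered the choice. The 118 cells carried endocardial genes that the gate had not used, while the summed UMIs of the 83 resembled those of capillary ECs. Neuregulin 1 (Nrg1), the endocardial ligand of ErbB receptors, reached 381 CPM over the 118 cells and 6.99 CPM over the 83. Cdh11, a cadherin, reached 435 and 6.99 CPM, and Plvap, a diaphragm protein of fenestrae, reached 1226 and 37.3 CPM. In reverse, the fatty acid binding protein Fabp4 reached 4415 CPM in the 118 cells and 31863 CPM in the 83, and Car4, a carbonic anhydrase of capillary ECs, reached 25.6 and 505 CPM. The endocardial label was thus borne out by other genes in the 118 cells and not in the summed UMIs of the 83. The 83 were mixed and differed by library. Their level of Vwf, von Willebrand factor, was 8.15, 69.5, 0 and 293 CPM in NC 1, NC 2, HFpEF 1 and HFpEF 2. Fabp4 was nonetheless at 25176 CPM in those of HFpEF 2. There, 1 Npr3-only member held 10 Npr3, 36 decorin (Dcn) and 15 Vwf UMIs. A gate of 2 or more genes may therefore leave out some endocardial cells of HFpEF 2.

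**Figure D1:**
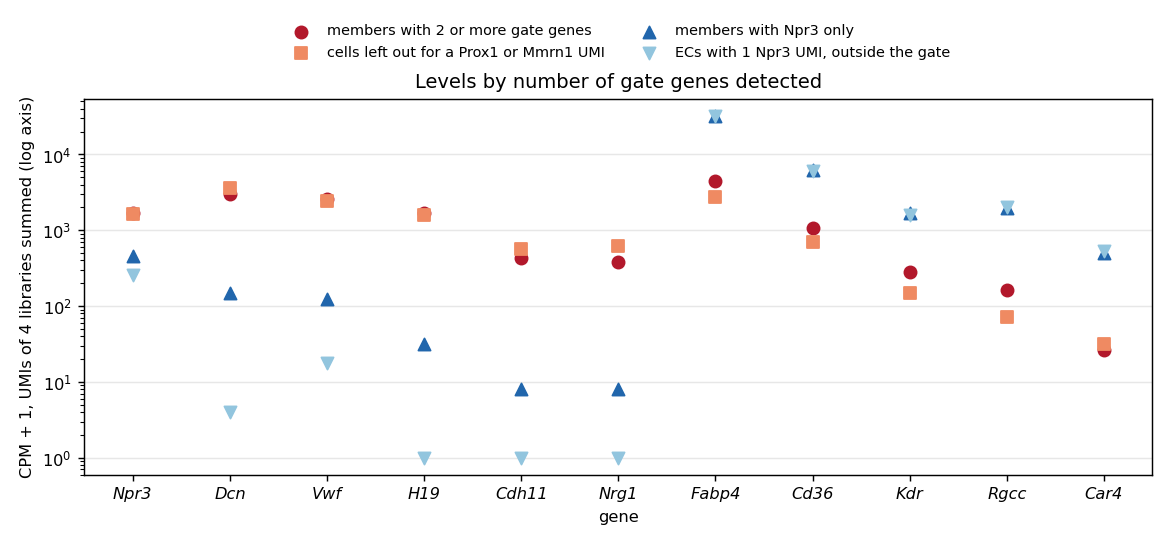
CPM plus 1 on a log axis for 11 genes in 4 sets of cells, with the UMIs of the 4 libraries summed. Members with 2 or more gate genes and cells left out for a Prox1 or Mmrn1 UMI lie close for most genes, while members with Npr3 alone and ECs with 1 Npr3 UMI lie together from Fabp4 to Car4 and lower and apart from Npr3 to Nrg1. Dcn is at 2995 and 3558 CPM in the first pair and at 147 and 3.02 CPM in the second, where the 147 CPM come mostly from the HFpEF libraries (0, 6.95, 400 and 378 CPM by library).

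At the threshold itself, 74 members had exactly 2 UMIs of the gate genes and 683 ECs had a single Npr3 UMI and so fell just outside. The latter had 32089 CPM of Fabp4 and 531 CPM of Car4, close to the 83 Npr3-only members. A second border was set by the lymphatic criterion. It left out 29 cells that met every other condition, 28 of them for a Prox1 UMI and 1 for Mmrn1. None of the 29 had a UMI of the lymphatic genes Pdpn, Ccl21a or Reln. The 29 cells did hold 50 Prox1 UMIs and 17 UMIs of Lyve1, which is also on the lymphatic list. Lyve1 was at 86.2 CPM in them and at 134 CPM in the 118 members. They had 3558 CPM of the proteoglycan decorin (Dcn), 1632 CPM of Npr3 and 618 CPM of Nrg1, beside 2995, 1670 and 381 CPM in the 118 members. Values are therefore given for the 201 members and, for some genes, also for the 118 cells, which are called the stricter gate.

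The gate genes had these levels because they chose the cells, and they are given as a description. Npr3 (chr15:11839896-11907287, minus strand, GRCm38) stood at 1059, 1284, 1058 and 1053 CPM in NC 1, NC 2, HFpEF 1 and HFpEF 2, and members held 1 to 37 Npr3 UMIs with a median of 3. Cytl1 stood at 738, 736, 758 and 608 CPM and Tmem108 at 285, 348, 212 and 232 CPM. The mean Npr3 level was 1114 ± 114 CPM (SD, n = 4 libraries) in members. The next highest were lymphatic-gated ECs at 236 ± 325 CPM and fibroblast-gated cells at 60.3 ± 93.7 CPM, whose libraries overlapped widely. Mural-gated cells had 19.8 ± 8.93 CPM. Capillary-gated, artery-gated and vein-gated ECs followed at 7.08 ± 3.27, 6.53 ± 1.21 and 6.43 ± 5.85 CPM and did not differ beyond their spread. The lymphatic-gated class required at least 2 UMIs of Prox1 and Mmrn1, which some of the 29 cells above had. Its Npr3 level was 712 CPM in NC 1 and 16.4 CPM in HFpEF 1.

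Genes outside the gate were ranked by the ratio of CPM in members to CPM in other ECs of the same library, after 10 CPM was added to both. Dcn, a small proteoglycan of the matrix, was near the top. It had 1921, 1611, 1781 and 1720 CPM in the members of NC 1, NC 2, HFpEF 1 and HFpEF 2 and 13.9 ± 12.3 CPM (SD, n = 4) in other ECs, a median log2 ratio of 6.55. H19, an imprinted noncoding RNA, had 1231, 822, 529 and 968 CPM (6.25). The libraries of the members did not overlap those of other ECs for either gene. Since the members were chosen against the other ECs, no test was made of these differences. Of 6106 genes with at least 20 UMIs in members or 100 CPM in other ECs, 269 (4.41%) had a median log2 ratio of at least 1 and were higher in 4 of 4 libraries, and 44 (0.721%) had a ratio of -1 or less and were lower in 4 of 4. Below, higher and lower refer to these criteria, and these shares are the background for the counts given for each list. Far fewer genes were higher after thinning or without members that carried UMIs of other cell types, as given with the processing.

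**Figure D2:**
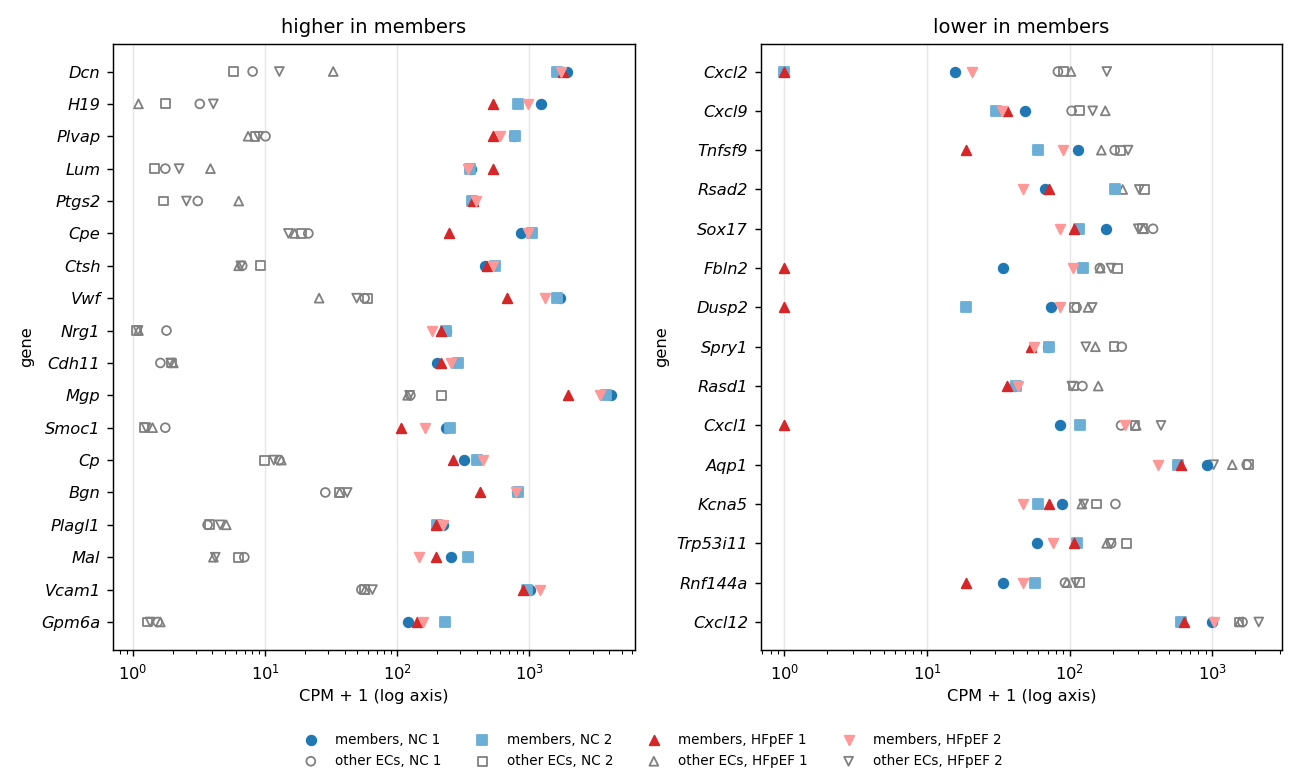
CPM plus 1 on a log axis in members (filled) and other ECs (open) of each library, for 18 of the genes with the highest and the 15 with the lowest median ratio, gate genes left out. In the left panel all members lie to the right of all other ECs, from Dcn at a log2 ratio of 6.55 to Gpm6a at 3.92, while the gaps in the right panel are smaller, from Cxcl2 at -3.00 to Cxcl12 at -1.16.

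Lumican (Lum, log2 ratio 5.11) and biglycan (Bgn, 4.09) belong with Dcn to the small leucine-rich proteoglycans, and matrix Gla protein (Mgp, 4.39), an inhibitor of calcification, was the most abundant of the leading genes at 4145, 3802, 1957 and 3423 CPM. Smoc1 (4.28), a matricellular calcium-binding protein, and ceruloplasmin (Cp, 4.18), a copper-carrying oxidase, were also among them. Plvap (5.21), which forms the diaphragms of fenestrae and caveolae, had 760, 781, 529 and 598 CPM in members and a mean of 7.71 CPM in other ECs. Further leading genes were Cpe (5.04) and Ctsh (4.96), which encode carboxypeptidase E and cathepsin H, the imprinted zinc finger gene Plagl1 (4.07), Mal (4.00), Gpm6a (3.92), and Ptgs2, Vwf, Nrg1, Cdh11 and Vcam1, described with their groups.

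Under the stricter gate each of these ratios was larger, 7.26 for Dcn and 5.24 for Nrg1, where the Npr3-only cells were left out. Detection ran the same way. A Plvap UMI was found in 50.2% of members (95% exact interval 43.1 to 57.4%) and 1.27% of other ECs, at median depths of 3995 and 2279 UMIs. With each cell thinned to 1000 UMIs the shares were 37.5% and 0.624%. Without thinning, the share was 27.7% in lymphatic-gated ECs, 12.6% in vein-gated ECs and 2.52% in mural-gated cells, at median depths of 4251.5, 3967 and 4246 UMIs.

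Endocardial markers that the gate had not used were mostly higher. Of 12 listed genes 10 had enough counts, 7 were higher and none lower, with a median log2 ratio of 2.65 against 0.02 over all genes with enough counts. Nrg1 had 234, 233, 212 and 183 CPM in NC 1, NC 2, HFpEF 1 and HFpEF 2 and at most 0.796 CPM in other ECs. Its ratio turned when members with UMIs of other cell types, most of which carried Dcn, were left out. The transcription factor Gata6 had 256, 200, 388 and 268 CPM in members (log2 ratio 2.67), and Hand2, also a transcription factor of heart development, had 106, 97.2, 141 and 32.7 CPM (3.23). Foxc1 (2.48), Smoc1, Cdh11 and Cgnl1, a junction protein (2.63), completed the 7. Nfatc1, the classic transcription factor of the embryonic endocardium, stood at a mean of 57.0 CPM against 33.5 CPM (0.46), and Gata5 had no UMI in members or other ECs.

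Genes of blood clotting and of prostanoid synthesis were often higher in members. Of 14 listed genes 12 had enough counts, 6 were higher and none lower (median 1.04), beside 4.41% higher among all genes with enough counts. Von Willebrand factor (Vwf), which tethers platelets, had 1706, 1623, 670 and 1318 CPM in members and a mean of 46.9 CPM in other ECs. Vein-gated ECs, whose gate used Vwf itself, had 577 CPM. Ptgs2, the inducible cyclooxygenase, had 373, 368, 370 and 392 CPM and a mean of 2.42 CPM in other ECs. The constitutive cyclooxygenase Ptgs1 (log2 ratio 2.65), prostacyclin synthase Ptgis (3.44), the thrombin receptor F2r (1.53) and Tfpi, an inhibitor of the tissue factor pathway (1.40), were higher as well. The flow-responsive factors Klf2 (-0.44) and Klf4 (-0.36) and nitric oxide synthase Nos3 (-0.11) met neither criterion.

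Of the natriuretic peptide and cGMP list 4 genes were higher and none lower (median log2 ratio 1.265). Npr3 clears the peptides, and the signaling receptor Npr1, a guanylyl cyclase, stood at 91.3 CPM against 78.4 CPM in other ECs (log2 ratio 0.22). The subunits of soluble guanylyl cyclase, Gucy1a1 and Gucy1b1, the cGMP-dependent kinase Prkg1 and the phosphodiesterase Pde3a were higher. Pde3a had 73.0, 88.4, 52.9 and 108 CPM in members and a mean of 1.93 CPM in other ECs (2.99), and Gucy1a1 had a mean of 35.4 CPM against 4.72 CPM (1.86). Of the 14 genes listed 7 had enough counts. In this and the other lists, a gene at a low level in other ECs could reach enough counts only through the members, so that its place among the higher genes was partly fixed by this criterion.

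Among secreted signals 3 of 14 genes with enough counts were higher, Nrg1, Bmp6 (log2 ratio 1.29) and Igf2, and the chemokine Cxcl12 was lower. Bmp6, a bone morphogenetic protein, had 281, 286, 300 and 203 CPM. Endoglin (Eng), a co-receptor for such ligands, had 1859, 2124, 1499 and 1818 CPM against a mean of 809.5 CPM (1.17), while the apelin receptor Aplnr was lower (-1.29). Of the mesenchymal transition list, Vim (1.30), Zeb2 (2.31) and Postn (2.27) were higher among 5 genes with enough counts. Of the hyaluronan and versican matrix list Bgn alone was higher among 5, and of the basement membrane list Col4a4 (2.46) alone among 14. Col4a1 (-0.82) and Col4a2 (-0.82), the main chains of vascular basement membrane, had lower means in members without meeting the criterion.

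Vcam1 and the chemokines differed in direction. Vcam1, which binds leukocytes, had 1015, 960, 899 and 1200 CPM in members and a mean of 57.1 CPM in other ECs (log2 ratio 3.96). Vein-gated ECs had a mean of 373 CPM of Vcam1. Cxcl10, which attracts T cells, was higher at 248, 415, 264 and 451 CPM against 134 CPM (1.41). The related Cxcl9 (-1.76) and the neutrophil-attracting Cxcl1 (-1.28) and Cxcl2 (-3.00) were lower. Cxcl2 had 4 UMIs in NC 1, 6 in HFpEF 2 and none in the other libraries.

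Genes of capillary identity and fatty acid handling lay below other ECs, mostly by less than 2-fold for the 201 members and by far more under the stricter gate. Fabp4 stood at 15576, 19693, 15110 and 14007 CPM in members against a mean of 27768 CPM (log2 ratio -0.76), and at -2.60 for the 118 cells. Cd36, the fatty acid translocase, moved from -0.59 to -2.03, Lpl, lipoprotein lipase, from -0.83 to -3.67, and Gpihbp1, which carries Lpl on capillaries, from -0.89 to -3.24. The list median went from -0.80 to -2.60 over 10 genes. Fabp5, a second fatty acid binding protein, went the other way at 2681, 3567, 1463 and 1717 CPM against 1003 CPM (1.10). Of the capillary list Aqp1 (-1.23) and Rgcc (-1.10) were lower among 10. Kdr, the main VEGF receptor, and Cldn5, a tight junction protein, which both entered the EC criterion, also had low levels in the 118 cells, 278 and 84.2 CPM, while Emcn, an endothelial sialomucin outside the gate, had a mean of 1075 CPM in members and 556 CPM in other ECs (0.98).

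Of artery genes the transcription factor Sox17 was lower (-1.48) and the kinase gene Bmx (3.01) and the connexin gene Gja4 (1.12) were higher. Of the Notch list Jag2 (-1.11) and Nrarp (-1.07) were lower among 11. Of vein genes 4 of 8 were higher, namely Vwf, Vcam1, Nr2f2 (2.06), the transcription factor of venous identity, and Lrg1 (2.02), while Ackr1, the defining gene of venules, had no UMI in members. The other genes at the lower end were Tnfsf9, Rsad2, Fbln2, Dusp2, Spry1, Rasd1, Kcna5, Trp53i11 and Rnf144a, with log2 ratios between -1.61 and -1.17. Under the stricter gate their ratios were lower still, for example -3.60 for Rsad2. Those of Sox17 and Cxcl12 were -2.98 and -3.77 there. With vein-gated ECs in place of all other ECs, 213 genes were higher and 57 lower.

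Markers of other cell types were read beside these results. The fibroblast list summed to 2326, 1997, 2363 and 2119 CPM in the members of NC 1, NC 2, HFpEF 1 and HFpEF 2. Its UMIs were mostly Dcn, 6 of its 8 genes had UMIs, and Tcf21 and Dpt were at 0. The defining collagen gene Col1a1 was found in 1 member, Pdgfra in 2, Col3a1 in 6 and Col1a2 in 20 (9.95%, against 0.290% of other ECs), beside 117 members with Dcn and 77 with Lum. Of the fibroblast list 3 genes had enough counts, Col1a2, Dcn and Lum, and all 3 were higher in members. Whether Dcn and Lum came from fibroblast RNA was not tested. Ptprc, the pan-leukocyte gene, was found in 0 of 201 members, which allows a share of up to 1.49% of cells with a UMI (exact 95% upper bound 1.82%) and says nothing of cells that express it without one, and no B-cell or T-cell marker had a UMI. Of 7 myeloid genes Cd68 and Lyz2 had UMIs. The mural list summed to between 98.1 and 188 CPM, led by Rgs5, and the cardiomyocyte list to between 35.3 and 132 CPM, led by Myl2, with all 7 genes detected. Mesothelial UMIs were all of Wt1, and lymphatic UMIs all of Lyve1. Scrublet called 3, 3, 0 and 10 members as doublets.

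Members were a smaller share of ECs in HFpEF than in NC. They made up 0.673% of ECs in NC 1 (95% exact interval 0.491 to 0.899%), 0.911% in NC 2 (0.689 to 1.18%), 0.463% in HFpEF 1 (0.294 to 0.694%) and 0.407% in HFpEF 2 (0.321 to 0.508%). The diets did not overlap, with means of 0.792% ± 0.168 (SD, n = 2) and 0.435% ± 0.0400. An exact permutation test of 2 against 2 libraries cannot go below p = 0.33, and no test of this difference was made. The stricter gate gave 0.374% and 0.537% in NC and 0.242% and 0.253% in HFpEF. HFpEF libraries were shallower, and with each cell thinned to 1000 UMIs before the gate the shares were 0.318% and 0.442% in NC and 0.304% and 0.179% in HFpEF. The difference of the means shrank from -0.357 to -0.139 percentage points, and NC 1 and HFpEF 1 lay within each other's intervals. Fewer endocardial ECs in the tissue and fewer captured in the sort cannot be told apart.

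**Figure D3:**
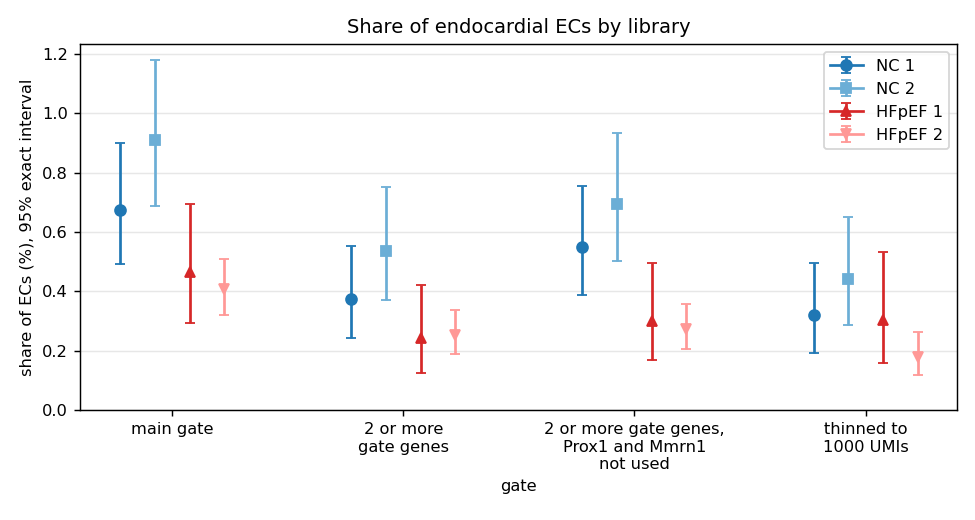
Share of endocardial ECs among ECs in each library, in percent, with 95% exact binomial intervals that cover counting error only, for 4 ways of gating. The NC libraries lie at 0.673% and 0.911% and the HFpEF libraries at 0.463% and 0.407% under the main gate, and NC 1 (0.318%) and HFpEF 1 (0.304%) nearly coincide after thinning.

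The effect of the diet within members was tested on UMI sums per library with edgeR's quasi-likelihood test and Benjamini-Hochberg adjustment. Of 4763 genes 11 were called at an adjusted p under 0.05 (0.231%), all higher in HFpEF, and 306 had an unadjusted p under 0.05. The median log2 fold change of all genes was -0.02. The 11 genes were 4 genes of MHC class II antigen presentation, 3 heat shock genes, Selp, Enpp2, Ccdc152 and Slc39a1. In these summed counts, more cells with a gene and more RNA per cell cannot be told apart. The labels do not say whether the libraries of a diet came from separate mice, so the p-values measure the spread between these libraries.

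**Figure D4:**
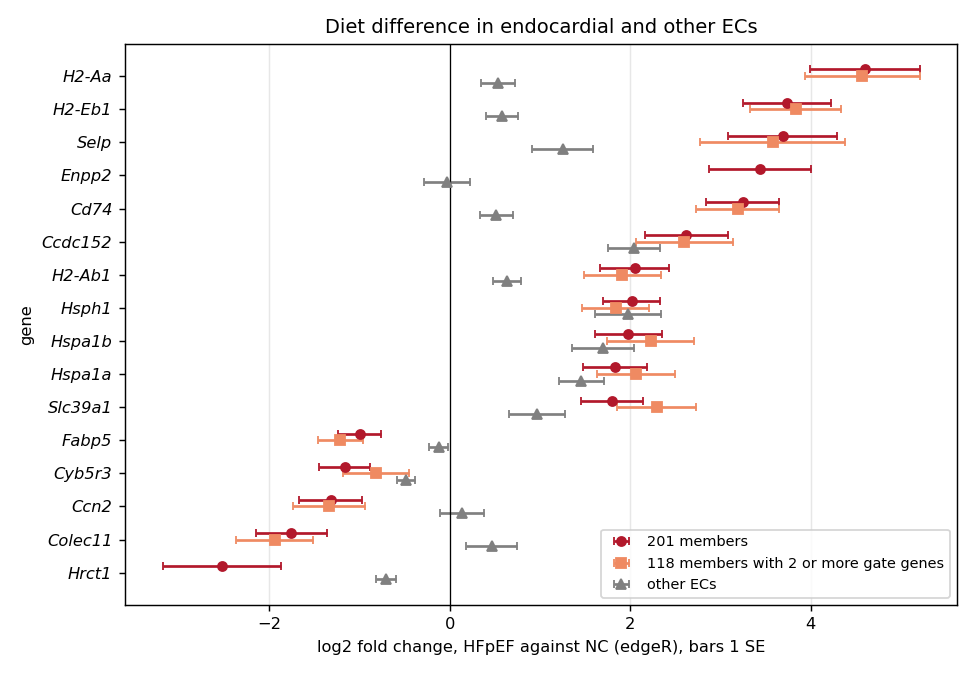
Log2 fold change of HFpEF against NC from edgeR, with bars of 1 SE, for the 11 called genes and the 5 genes of negative fold change with the smallest p, in the 201 members, the 118 members of the stricter gate and other ECs. The class II genes lie between 2.05 and 4.60 in members and between 0.51 and 0.64 in other ECs, while Hsph1 is at 2.02 and 1.97.

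MHC class II molecules present peptides to helper T cells, and endothelial cells can express them when activated. Cd74, the invariant chain that guides them through the cell, had 9 and 19 UMIs in NC and 41 and 96 in HFpEF, or 32.9, 56.0, 723 and 314 CPM in NC 1, NC 2, HFpEF 1 and HFpEF 2. Its log2 fold change was 3.24 (SE 0.40, adjusted p = 0.000459 in edgeR). H2-Aa (chr17:34282744-34287823, minus strand), the alpha chain of I-A, had 7.30, 5.89, 317 and 128 CPM (4.60, SE 0.61, edgeR adjusted p = 0.000459). H2-Eb1 (chr17:34305867-34316674, plus strand), the beta chain of I-E, had 7.30, 17.7, 264 and 157 CPM (3.73, SE 0.49, edgeR adjusted p = 0.000459). H2-Ab1, the beta chain of I-A, had 43.8, 29.5, 159 and 154 CPM (2.05, SE 0.39, edgeR adjusted p = 0.0193). The fold change of H2-Ab1 was 2.10 without HFpEF 2 (adjusted p = 0.233) and 1.78 without NC 2 (0.0522). For each of these 4 genes the diets did not overlap. H2-Aa rested on 2 UMIs in each NC library. When 1 library was left out, the log2 fold change of Cd74 ranged from 2.73 to 3.96. That of H2-Aa ranged from 4.16 to 5.47 and that of H2-Eb1 from 3.28 to 4.51. In the 118 cells of the stricter gate 3 of 2681 genes were called, Cd74 (3.19, edgeR adjusted p = 0.0065), H2-Aa (4.57, 0.00638) and H2-Eb1 (3.83, 0.00638).

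The start regions of H2-Aa and H2-Eb1 are shown because these genes were called together and because both hold the letters of the Y box, an element known from class II promoters. The sequences are from RefSeq on GRCm38.p6, 250 bases before to 50 after the start, 5′ to 3′ on the strand of the gene, with each match to CTGATTGG on either strand in capitals. H2-Aa covers chr17:34287774-34288073 on the minus strand and H2-Eb1 chr17:34305617-34305916 on the plus strand.
H2-Aa: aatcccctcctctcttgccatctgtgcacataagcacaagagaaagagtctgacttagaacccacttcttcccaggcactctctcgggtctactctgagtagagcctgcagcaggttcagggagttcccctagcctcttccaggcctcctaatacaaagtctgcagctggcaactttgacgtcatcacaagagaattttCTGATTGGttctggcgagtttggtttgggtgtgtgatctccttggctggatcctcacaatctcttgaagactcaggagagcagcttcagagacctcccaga
H2-Eb1: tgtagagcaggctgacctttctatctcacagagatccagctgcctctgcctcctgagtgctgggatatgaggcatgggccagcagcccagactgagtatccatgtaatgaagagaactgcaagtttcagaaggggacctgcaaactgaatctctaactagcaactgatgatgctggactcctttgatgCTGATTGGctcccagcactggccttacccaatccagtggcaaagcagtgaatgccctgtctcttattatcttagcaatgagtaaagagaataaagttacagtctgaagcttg
Each held 1 match, which began at base 200 of the H2-Aa sequence and at base 189 of the H2-Eb1 sequence. A match was found in 1346 of the 32851 RefSeq promoters of this length (4.10%). A match describes these letters and is not a measured binding site, and these are the class II genes among the 4 for which a sequence was at hand.

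The class II UMIs were held by few cells. Summed over the 4 genes, 5 of 45 and 7 of 56 members had a UMI in NC and 7 of 23 and 27 of 77 in HFpEF, or 12 of 101 NC members and 34 of 100 HFpEF members. The top member held 10 of 25 UMIs in NC 1, 31 of 37 in NC 2, 49 of 83 in HFpEF 1 and 62 of 230 in HFpEF 2. Over the libraries, Cd74 UMIs were found in 9.95% of members, 15.9% of vein-gated ECs and 1.49% of capillary-gated ECs, at median depths of 3995, 3967 and 2013 UMIs. With cells thinned to 1000 UMIs the shares were 5.5%, 10.7% and 1.04%. Fibroblast-gated cells, which should lack the gene, had it in 2.38% (95% exact interval 0.494 to 6.80%) at a median depth of 3374 UMIs, and this interval overlapped that of the members (6.18 to 14.9%). In library order these cells stood at 0, 0, 224 and 3.99 CPM of Cd74 and 0, 0, 199 and 0 CPM of H2-Aa, from 10 and 8 UMIs in all. In HFpEF 1 they also had 199 CPM of Npr3 and 622 CPM of H19. Mural-gated cells had Cd74 in 7.83% at 4246 UMIs. The EC gene Fabp4 had UMIs in 61.9% of fibroblast-gated and 98.3% of mural-gated cells, so that neither class was free of EC RNA. Ptprc and the B-cell markers were at 0 in members. The 29 cells left out for a Prox1 or Mmrn1 UMI held 18 class II UMIs in NC 1 and 307 in NC 2, of which 300 lay in 1 cell, and 83 and 125 in HFpEF 1 and HFpEF 2. When these cells were put back under the stricter gate, no gene was called (272 of 3715 at an unadjusted p under 0.05), and the log2 fold change of Cd74 was 1.60 (adjusted p = 0.676), that of H2-Aa 2.08 (0.554) and that of H2-Eb1 1.91 (0.603). The calls of these genes thus depended on whether the 29 cells counted as members.

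**Figure D5:**
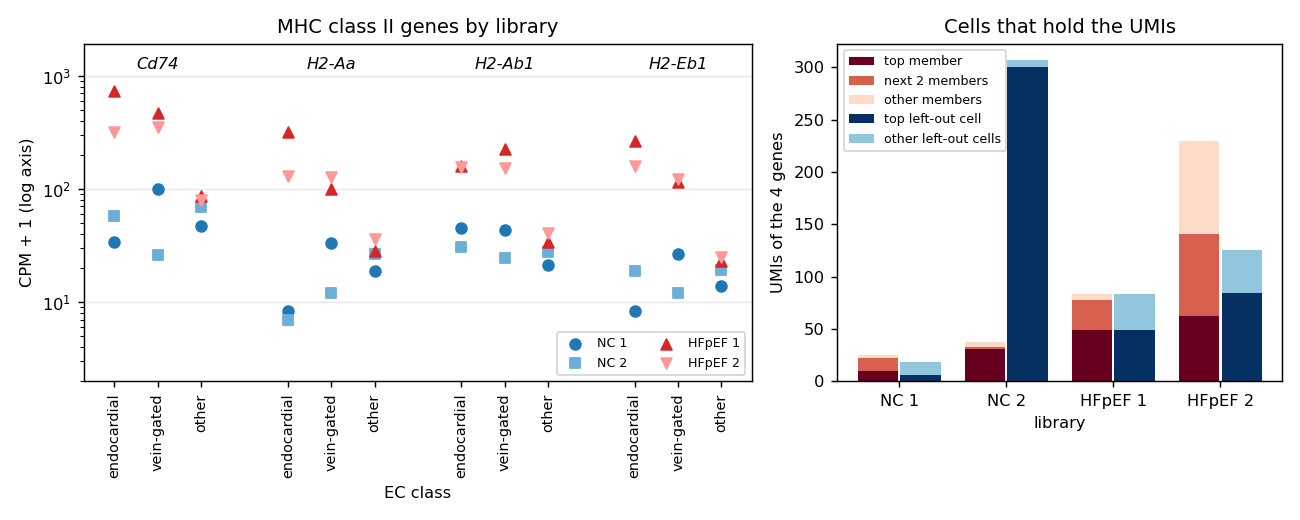
Left, CPM plus 1 on a log axis of 4 class II genes by library in endocardial, vein-gated and other ECs. Right, UMIs of the 4 genes in members (left bar of each pair) and in the cells left out for a Prox1 or Mmrn1 UMI (right bar), split by the cells that held them; 1 left-out cell of NC 2 held 300 of 307 UMIs.

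Class II genes also lay apart by diet in other classes. In library order the Cd74 levels of vein-gated ECs were 98.5, 25.0, 468 and 353 CPM, and those of H2-Aa were 31.9, 11.0, 99.5 and 127 CPM. Artery-gated ECs had 37.4, 52.7, 146 and 141 CPM of Cd74 and 16.2, 17.2, 33.4 and 67.4 CPM of H2-Aa. The diets did not overlap for either gene in either class. Capillary-gated ECs had 39.4, 60.8, 59.4 and 42.1 CPM of Cd74, where the diets overlapped.

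P-selectin (Selp), which captures leukocytes, had 11 and 1 UMIs in NC and 3 and 109 in HFpEF, or 40.2, 2.95, 52.9 and 356 CPM in NC 1, NC 2, HFpEF 1 and HFpEF 2 (log2 fold change 3.69, SE 0.60, adjusted p = 0.00516 in edgeR). Without HFpEF 2 the fold change in members was 1.35 (adjusted p = 0.927). Vein-gated ECs had 120, 42.3, 383 and 401 CPM of Selp, where the diets did not overlap. That class was chosen partly by its own Selp UMIs, so no diet difference is read from these values. In other ECs the Selp levels were 9.87, 4.59, 14.8 and 19.2 CPM, which did not overlap either (log2 fold change 1.25, edgeR adjusted p = 0.181). Enpp2, the enzyme that makes lysophosphatidic acid, had 3, 2, 5 and 30 UMIs, and 22 of the 30 lay in 1 member. Under the stricter gate with the 29 cells put back, which changed both the gate and the lymphatic criterion, its fold change was -0.31. Slc39a1, a zinc transporter, had 65.7, 56.0, 141 and 245 CPM (1.79, SE 0.34, adjusted p = 0.0193). Ccdc152 had 14.6, 29.5, 70.5 and 170 CPM (2.62, and 1.60 with an edgeR adjusted p of 0.9 without HFpEF 2) and overlaps Selenop on the opposite strand, so that the reads of the pair could not be told apart with certainty.

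The heat shock genes were higher in HFpEF in members, and other ECs had fold changes of like size. Hsph1, a co-chaperone, had 73.0, 58.9, 247 and 284 CPM (log2 fold change 2.02, SE 0.31, adjusted p = 0.00377 in edgeR, and 1.89 with an adjusted p of 0.0862 without HFpEF 2). Hspa1a had 1698, 551, 3420 and 4662 CPM (1.83) and Hspa1b 1275, 401, 2363 and 4244 CPM (1.98), 2 near-identical copies whose reads the counting could split. Without NC 1 these copies were at 2.82 and 3.01, and without NC 2 at 1.24 and 1.38. Neither was called with DESeq2 (1.75 and 1.89) or under the stricter gate (2.07 and 2.22). In other ECs the fold changes were 1.97, 1.46 and 1.69, where none passed the test (edgeR adjusted p = 0.148 for each). Of the 12 immediate early and heat shock genes 3 were called and 10 had a fold change above 0, with a median of 0.36, beside 11 called and 2303 above 0 among all 4763 genes.

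No gene fell by the criterion. The 5 with the smallest p among those with a negative fold change were Colec11, a collectin (157, 194, 17.6 and 62.1 CPM, log2 fold change -1.76, adjusted p = 0.0925 in edgeR), Cyb5r3 (-1.16, 0.161), Fabp5 (-0.999, 0.161), Hrct1 (-2.52, 0.258) and the matricellular gene Ccn2 (-1.32, 0.265). Each of the 5 was called lower under at least 1 alternative, Colec11 under 6, Ccn2 and Fabp5 under 4, Hrct1 under 3 and Cyb5r3 under 1. Mural-gated cells had more Colec11 than members, at 452, 520, 740 and 395 CPM in library order. Whether the Colec11 UMIs of members came from RNA of such cells was not tested. HFpEF 2 carried the values of Hrct1 and Ccn2, which were -0.65 (edgeR adjusted p = 0.927) and -0.56 (0.9) without it, while Hrct1 was at -3.62 (0.000173) without HFpEF 1. The other lists gave no call besides Cd74 and H2-Aa in the interferon and chemokine list and Selp in the vein list. None of the 11 genes tested from the VEGF and Tie receptors, the 9 from fatty acid uptake, the 12 from coagulation and flow or the 13 from basement membrane was called. Their median fold changes were -0.06, -0.12, 0.01 and -0.09. Cxcl10 had a fold change of 0.18 (adjusted p = 0.97) in members.

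Scarb1, the gene whose endothelial deletion the study examined, had 65.7, 20.6, 52.9 and 49.0 CPM in the members of NC 1, NC 2, HFpEF 1 and HFpEF 2, from 43 UMIs in all. Its fold change between the diets was 0.23 (adjusted p = 0.98 in edgeR). Of these UMIs 37 lay in the 83 Npr3-only members and 6 in the 118 cells, or 86.2 and 11.0 CPM. Other ECs had 109, 45.5, 112 and 51.2 CPM, so that NC 1 and HFpEF 1 stood above NC 2 and HFpEF 2 in that class.

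A second model asked whether the effect of the diet differed between members and other ECs of the same libraries. Of 11648 genes 15 were called (0.129%), 6 with a larger and 9 with a smaller log2 fold change in members. H2-Aa (difference 4.04, adjusted p = 2.58e-07), H2-Eb1 (3.14, 1.93e-05), Cd74 (2.63, 4.68e-13), Enpp2 (3.56, 0.00973), Selp (2.36, 0.00532) and clusterin (Clu, 0.83, 0.0178) were on the larger side. With the 29 left-out cells put back under the stricter gate, H2-Aa was at 1.34 (edgeR adjusted p = 0.0791) and H2-Eb1 at 1.27 (0.269), and neither was called. Without NC 2 they were at 3.59 (0.0777) and 3.69 (0.0734), not called. Enpp2 was not called under the stricter gate (2.25, adjusted p = 1), against vein-gated ECs (2.37, 0.999), or without NC 1 (3.90, 0.22), NC 2 (3.40, 0.412) or HFpEF 2 (2.96, 0.973). Clu, a secreted chaperone, had 632, 371, 1428 and 863 CPM in members. On the smaller side, the actin-severing gene Gsn had 8, 6, 0 and 1 UMIs in members while it stood at 4.12, 4.77, 54.4 and 14.0 CPM in other ECs (-5.36, adjusted p = 0.0028). The call of Gsn was lost without NC 1 (-4.89, adjusted p = 0.574), NC 2 (-5.80, 0.0734) or HFpEF 1 (-4.48, 0.142), and without HFpEF 2 no UMI remained in the HFpEF members, so that the fitted value of -14.5 is no bound. Dcn had 1921, 1611, 1781 and 1720 CPM in members and 7.05, 4.73, 31.8 and 11.8 CPM in other ECs (-1.77, adjusted p = 3.92e-10). Ifit3b (-2.97), Ifit3 (-1.89), Rsad2 (-1.61), Colec11 (-2.09), Ccn2 (-1.38) and Fabp5 (-0.95) completed this side together with the gate gene Npr3, from which nothing is read. Colec11 was not called when any 1 library was left out, with values from -4.36 (without HFpEF 2) to -1.68 and adjusted p from 0.0927 to 0.832. Ifit3b was not called without NC 2 (-2.10, adjusted p = 1) or HFpEF 2 (-2.35, 0.973). NC 2 held most of the member UMIs of the interferon-induced genes Ifit3 (81 of 116) and Rsad2 (70 of 106). Against vein-gated ECs 9 genes were called, all on the smaller side and none of them of class II. There H2-Aa was at 2.00 (edgeR adjusted p = 0.72) and H2-Eb1 at 0.97 (0.999).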

How the data were processed

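The authors deposited UMI counts per gene and cell for each of the 4 libraries. The submitters' processing notes name fastp, Cell Ranger 5.0.1 and mm10, and the study's methods describe filters on genes and mitochondrial UMIs, which leave 40154 of the deposited cells. The hemoglobin filter belonged to the gate and left 39829. Here cells were gated on these counts as described above, and all 121073258 UMIs came from the deposited matrices. Vein-gated, artery-gated and capillary-gated ECs were split by UMI sums of vein genes (Selp, Vwf, Nr2f2 and Ackr1) and artery genes (Gja5, Fbln5, Sema3g, Stmn2 and Bmx). The members and gene lists were chosen with earlier results of these data known.

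UMIs of a class were summed per library. CPM were set side by side within a library. Diet (NC, HFpEF) and class by diet (with library as a block) were tested with edgeR 4.0.16 in R 4.3.3 (TMM, filterByExpr, quasi-likelihood, Benjamini-Hochberg, adjusted p under 0.05), and the script was tested on simulated data. DESeq2 1.42.0, no count filter, other gates, thinning, doublet removal by Scrublet (scanpy 1.11.5; the expected share of cells with the highest scores was removed), the replicate number as a block and leaving out each library were alternatives. Named genes were the 20 with the highest and the 15 with the lowest ratios (2 of these are not reported here), called genes (at most 10 a direction, or the 5 with the smallest p) and the genes of 12 pathway and 18 marker lists. Slc39a1 and the further genes called for class by diet were named after their values were seen. Intervals and floors cover counting error only. Gene coordinates are GRCm38 (GENCODE vM21), where 31107 of 31253 gene IDs matched.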

Additional observations from a re-analysis of the deposited data

Results flagged for a closer look

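The effect of HFpEF against NC differed between endocardial ECs and other ECs of the same libraries for 14 genes outside the gate, by edgeR's class by diet term. The log2 difference was 4.04 for H2-Aa, 3.14 for H2-Eb1 and 2.63 for Cd74, and these were held by few cells in each library. Against vein-gated ECs in place of other ECs it was 2.00 for H2-Aa and 0.97 for H2-Eb1, and neither was called. For H2-Aa and H2-Eb1 the call was lost when the cells left out for a Prox1 or Mmrn1 UMI were put back under the stricter gate (1.34 and 1.27) and when NC 2 was left out (3.59 and 3.69). It was 3.56 for Enpp2, where 22 of 30 UMIs of HFpEF 2 lay in 1 cell and the call was lost without NC 1, NC 2 or HFpEF 2 (3.90, 3.40 and 2.96). It was 2.36 for Selp, where HFpEF 2 held 109 of the UMIs. It was 0.83 for Clu. On the other side it was -5.36 for Gsn, with 15 UMIs in all members and the call lost without NC 1, NC 2 or HFpEF 1 (-4.89, -5.80 and -4.48), and -1.77 for Dcn, which had a mean of 1758 CPM and an SD of 129 CPM over the libraries of members and 13.9 and 12.3 CPM over those of other ECs. It was -2.97 for Ifit3b, -1.89 for Ifit3 and -1.61 for Rsad2, of which Ifit3 and Ifit3b are near-identical copies, and -2.09 for Colec11, where leaving out any 1 library ended the call, -1.38 for Ccn2 and -0.95 for Fabp5. What these differences rest on was not tested beyond the alternatives given next.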

How the results depend on the processing

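The number of genes called for diet within members was 11. It was 3 with DESeq2 and 3 under the stricter gate (Cd74, H2-Aa and H2-Eb1 each time), 25 without a count filter, and 0 by edgeR without members that carried UMIs of other cell types (2605 tested, 170 at an unadjusted p under 0.05) or after thinning (854 tested, 55). With Dcn not counted among the UMIs of other types, it was 8, of which 7 were among the 11, with Cd74, H2-Aa and H2-Eb1 called. With the lymphatic criterion dropped from the stricter gate, chosen after seeing the data, it was 0 (3715 tested, 272). It ranged from 11 (without HFpEF 2) to 33 (without HFpEF 1) when 1 library was left out, with 31 without NC 1 and 25 without NC 2, and the lone library of a diet was then assumed to vary like the others. Under the stricter gate without HFpEF 1 it was 26. The labels do not say what a replicate number marks, and same-numbered libraries did not deviate together (correlation -0.0398). Scarb1 in other ECs was nonetheless higher in NC 1 and HFpEF 1 than in NC 2 and HFpEF 2. The replicate block gave 13 calls and the crossed pairing 22, and Colec11 was called lower under both (adjusted p = 0.0154 and 0.0206 in edgeR), where the range of its adjusted p over all alternatives was 0.00482 to 1.

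Class by diet gave 15 calls, 1 with DESeq2, 1 after thinning, 2 without members with UMIs of other types (8 when Dcn was not counted among these), 9 with vein-gated ECs as comparator and 28 under the stricter gate without the lymphatic criterion (15 under the stricter gate alone). Leaving out a library gave 3 (without NC 2) to 15.

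The difference in share, -0.357 percentage points, ranged from -0.476 (without NC 1) to -0.238 (without NC 2) and was -0.139 after thinning and -0.173 without members with UMIs of other types. Genes higher in members numbered 269, against 23 without members with UMIs of other types, 116 after thinning and 436 under the stricter gate without the lymphatic criterion (365 under the stricter gate alone). Genes lower numbered 44, against 75 with a prior of 1 CPM, 253 under the stricter gate, 280 under it without the lymphatic criterion, 7 without members with UMIs of other types and 19 with Dcn not counted.

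Directions turned for Enpp2 under the stricter gate without the lymphatic criterion (diet -0.31, class by diet -0.25, where the stricter gate alone gave 2.25 for class by diet) and without members with UMIs of other types (class by diet -9.26), for Ifit3b after thinning (class by diet 0.80) and for the Nrg1 ratio without members with UMIs of other types (-0.0125). The cause was not tested. Of the 108 members left out for UMIs of other types, most carried Dcn, and 27 were left out when Dcn was not counted. Of the Dcn UMIs of members, 1637 lay in the 118 cells of the stricter gate and 63 in the 83 Npr3-only members. For Nrg1 these numbers were 208 and 3. Leaving out members with Dcn therefore also took out cells of the stricter gate, and is no check on RNA of other cells alone. Over the other named genes and settings, 146 diet values kept their side of the threshold, 34 lost and 18 gained a call. For class by diet 29 kept it and 44 lost the call, and of the ratios 278 moved by less than the spread between libraries and 141 by more.

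Depth limited HFpEF 1 most, where 1 UMI stood for 17.6 CPM.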

Other observations

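Lyve1, a hyaluronan receptor known from lymphatic vessels and macrophages, had 51.1, 58.9, 0 and 128 CPM in the members of NC 1, NC 2, HFpEF 1 and HFpEF 2 and a mean of 0.514 CPM in other ECs. All 73 Lyve1 UMIs lay in the 118 members of the stricter gate, and Pdpn, Ccl21a and Reln were at 0 there. The cells left out for a Prox1 or Mmrn1 UMI had 86.2 CPM of Lyve1.

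UMIs of proliferation genes were found in the members of NC 2 and of no other library, 6 in all, led by Top2a with 3. Between the diets, members had log2 fold changes of 0.07 for Cp (edgeR adjusted p = 0.992) and -0.05 for Dcn (0.992).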
